A study of Mus musculus with 8 samples.

Results

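The genes described here encode enzymes that cut, remodel or phosphorylate membrane phospholipids and diacylglycerol: phospholipases, lysophospholipid acyltransferases, diacylglycerol kinases and the last enzymes of cardiolipin synthesis. They were chosen by name, 45 genes in all, and 41 of them had at least 1 probe set that the array's annotation gives to that gene alone. These 41 are among 22180 genes measured in whole-heart RNA, labelled myocardium, from 8 mice that were all Pcyt2+/-, 4 males and 4 females aged 8 months. The mice were killed for tissue 3 to 4 hours into the light period, the hearts were frozen at once, and 100 ng of total RNA per sample was labelled for a short-oligonucleotide array. Males and females thus share the loss of 1 Pcyt2 allele with no wild-type group analysed here, so sex is the comparison available and no value below measures the effect of the genotype. The labels call the samples biological replicates without saying how many hearts went into each.

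Cells renew membrane lipids after synthesis: a phospholipase A2 removes the fatty acid at the middle glycerol position, and an acyltransferase attaches another to the lysophospholipid that remains. In heart muscle this cycle sets which fatty acids membranes hold and releases arachidonate, the precursor of prostaglandins, while a related acyl exchange shapes cardiolipin, the phospholipid of the inner mitochondrial membrane. Phospholipase D makes phosphatidate, diacylglycerol kinases make it from diacylglycerol, and both of those lipids are signals as well as intermediates. Pcyt2, the controlling enzyme of the ethanolamine route, supplies the phosphatidylethanolamine that several of these enzymes use. In these hearts Pcyt2 had a female minus male difference of -0.05 ± 0.10 (SE, log2), which does not check the genotype label since every sample carries it.

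Each value is on a log2 scale and states the distance of an array from the middle of the 8 arrays for that probe set. It shows whether a heart lies above or below the others for 1 gene, and cannot say which gene is more abundant, so no member can be called present or absent. The same holds for the markers of heart muscle, whose level could not be checked. The mean of 8 cardiomyocyte markers stayed between -0.08 and 0.03 in all 8 hearts, whereas the mean of 6 atrial muscle markers ran from -1.23 to 0.52 and that of 8 fast skeletal muscle markers from -0.26 to 0.89. The amounts of atrial and skeletal muscle RNA thus differed between hearts of the same sex. In whole tissue, fewer cells of a type and less RNA per cell cannot be told apart.

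None of the 41 members differed between the sexes after adjustment over all genes (limma with Benjamini-Hochberg adjustment, lowest adjusted p = 0.437), where 0.0316% of all genes did. All 41 members lie on autosomes, and 0 genes passed when autosomal genes alone were fitted. At an unadjusted p under 0.05 by limma there were 2 members, or 4.88% against 6.96% of all genes. Of these 1 was higher in females and 1 in males, where 3.63% and 3.32% of all genes were. Male and female values did not overlap in 2 members, again 4.88%, against 3.74% of all genes, with 1 in each direction beside 1.89% of all genes in the female direction and 1.85% in the male one. Both shares are near those of all genes and are no result about the members. The 2 members were the same by both counts, the diacylglycerol kinase genes Dgka and Dgkh. The first count was 5 (12.2%) without male 1, 5 (12.2%) without female 2, 4 (9.76%) without female 4 and 1 (2.44%) without male 3, where 6.68%, 6.40%, 7.84% and 6.06% of all genes passed. The second was 4 (9.76%) without male 2, 4 (9.76%) without female 1 and 6 (14.6%) without female 2, where 7.49%, 6.83% and 6.60% of all genes had separate sexes. Without the 3 hearts highest in Myh4, a fast skeletal myosin gene, the first count was 6 (Dgka, Lclat1, Lpcat1, Pla2g10, Pla2g2d and Pla2g4a), or 14.6%, beside 7.29% of all genes. The hearts left out were males 1 and 2 and female 1. The limma adjusted p of the 6 members ran from 0.503 to 0.603 in that fit. The mean of the females was the higher in 18 members, or 43.9%, beside 49.6% of all genes, and the median difference was -0.0037 beside -0.00058 over all genes. Differences are given as females minus males on the log2 scale throughout.

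The intervals bound the differences in array signal. Since no member can be called present, they do not bound the differences in transcript amount. The 95% interval of the difference lay inside a 1.5-fold change in either direction for 41 of 41 members, and inside a 1.2-fold change for 36 of them, beside 99.4% and 87.7% of all genes. The 5 members whose interval reached past 1.2-fold were Lclat1, Pla2g2d, Napepld, Mboat2 and Dgka, and the outer bounds of the first 3 were 1.33-fold, 1.30-fold and 1.27-fold. These bounds hold gene by gene and were not widened for the number of genes.

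**Figure D1:**
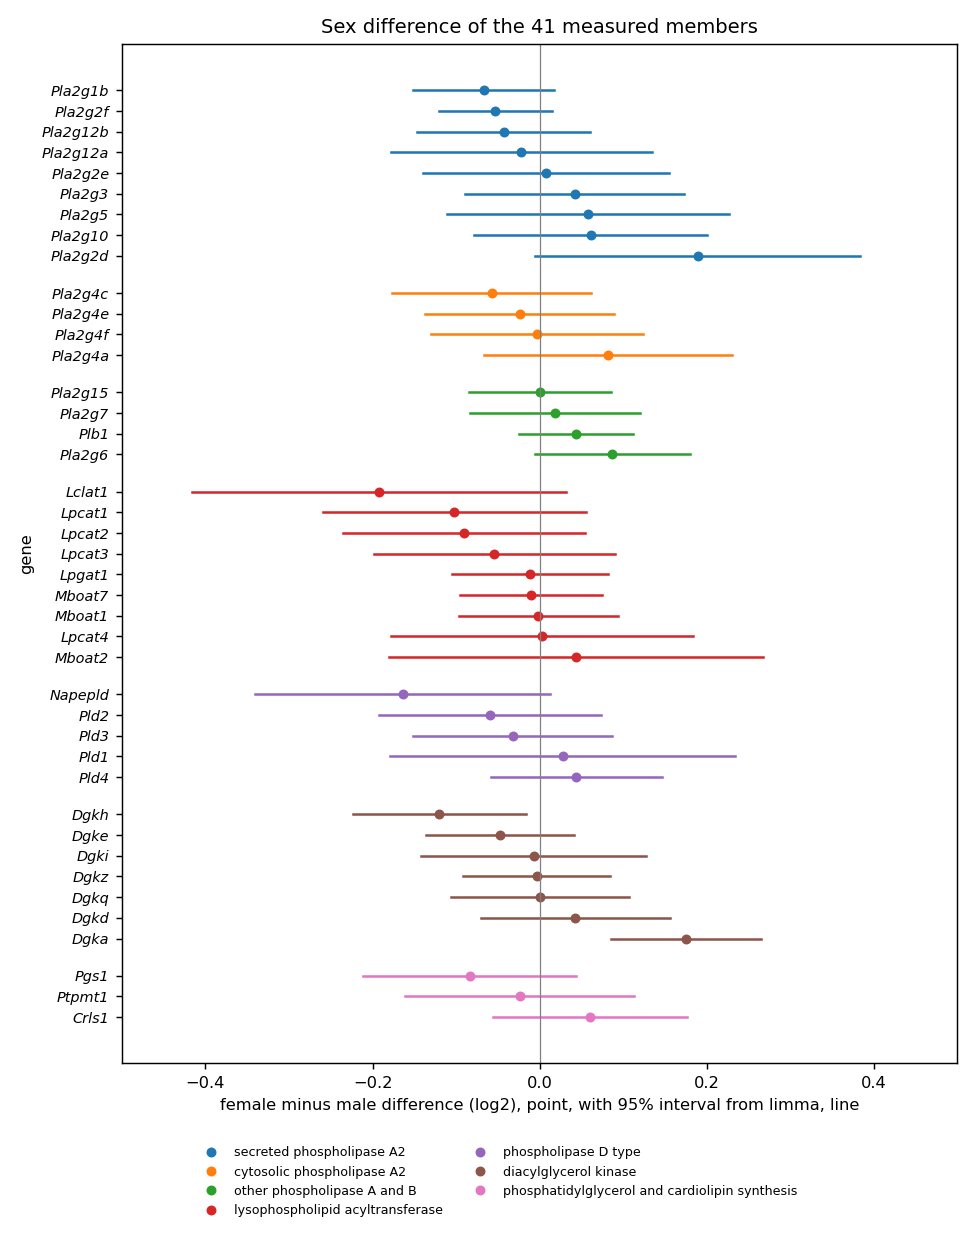
Female minus male difference (x axis, log2) of the 41 measured members (y axis), each a point with its 95% interval from limma as a line, coloured by enzyme class. Differences run from -0.19 for Lclat1 to 0.19 for Pla2g2d, and only the intervals of Dgka and Dgkh exclude 0, before any adjustment for the number of genes.

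The secreted phospholipases A2 are mostly small calcium-dependent enzymes that act outside cells, and 9 of 9 were measured. None passed, the female mean was the higher in 5 and the male mean in 4, and their differences ran from -0.07 for Pla2g1b, the pancreatic digestive enzyme, to 0.19 for Pla2g2d, a form found in lymphoid tissue. Pla2g2d had values of 0.06, -0.01, -0.15 and -0.21 in males 1 to 4 and 0.33, 0.01, -0.02 and 0.12 in females 1 to 4. Female 1 was the highest of the 8 hearts and males 3 and 4 were the lowest, and the sexes overlapped. Its means were -0.08 ± 0.13 for males and 0.11 ± 0.16 for females (n = 4 per sex, ± SD), a difference of 0.19 ± 0.09 (SE, limma adjusted p = 0.72). Without female 1 the difference was 0.12, and with the adipocyte marker mean as a term in the fit it was 0.29. With the mean of the lymphocyte markers as a term in the fit it was 0.00196. That marker mean lay between -0.02 and 0.0006 in males and between 0.0028 and 0.06 in females, with 7 of 8 markers measured, 5 of them with higher means in females and 0 past the adjusted threshold. Since the marker mean itself did not overlap between the sexes, this term takes up part of the sex contrast. Its part and that of sex cannot be told apart here, nor for any other gene fitted with this term.

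Pla2g5, a secreted form expressed in heart and macrophages, had values of -0.16, -0.19, 0.02 and 0.16 in males and 0.06, 0.06, -0.02 and -0.04 in females. Males 1 and 2 were the lowest of all hearts, male 4 was the highest, and the 4 females lay between them. The difference was 0.06 ± 0.07 (SE, limma adjusted p = 0.945), and the SD was 0.16 in males against 0.05 in females. Males 1 and 2 also had the highest means of the fast skeletal muscle markers, 0.61 and 0.89, but female 1, next at 0.35, had a Pla2g5 value of 0.06. Whether skeletal muscle RNA bears on Pla2g5 was not tested. The gene lies in a cluster of secreted phospholipase A2 genes on chromosome 4, where Pla2g2f, Pla2g2d and Pla2g5 follow one another with 0 protein-coding genes between neighbours, and Pla2g2e stands 1 gene further on. These neighbours did not share a pattern over the hearts: female 1 was the highest for Pla2g2d at 0.33 but was at -0.03 for Pla2g2f and -0.02 for Pla2g2e, and the highest heart for Pla2g2e was female 4 at 0.24. The remaining secreted forms, Pla2g3, Pla2g10, Pla2g12a and Pla2g12b, had differences from -0.04 to 0.06.

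The cytosolic phospholipases A2 act inside cells, and Pla2g4a, the best known, releases arachidonate at intracellular membranes when calcium rises. Of 5 genes 4 were measured, and 0 passed. Pla2g4a had values of 0.09, -0.01, -0.08 and -0.15 in males and -0.10, 0.12, 0.14 and 0.01 in females, so that the highest heart was female 3 and the lowest male 4. Its difference was 0.08 ± 0.07 (SE, limma adjusted p = 0.878), with overlapping sexes. Pla2g4c, Pla2g4e and Pla2g4f had differences of -0.06, -0.02 and -0.004. Pla2g4e makes N-acylphosphatidylethanolamine from phosphatidylethanolamine and was low in the 2 hearts male 1 and female 1, at -0.14 and -0.11, and between -0.04 and 0.05 in the other 6. The 2 probe sets that could report Pla2g4b are also assigned to its neighbour Jmjd7 and were not used.

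Of the other phospholipases A and B, 4 of 5 were measured under the listed symbol, 4 had higher means in females and 0 passed. Pla2g6, the calcium-independent enzyme of membrane upkeep, had values of -0.10, -0.01 and -0.04 in males 1, 3 and 4 and 0.01 in male 2, and of 0.14, -0.01, 0.03 and 0.06 in females. Its difference was 0.09 ± 0.04 (SE, limma adjusted p = 0.726), the largest of this class. Plb1, the brush-border phospholipase B of the intestine, was the steadiest of all members, with an SD over the 8 arrays of 0.03 and a difference of 0.04 ± 0.03 (SE). Pla2g7, which inactivates platelet-activating factor, and Pla2g15, the lysosomal enzyme, had differences of 0.02 and 0.00023. The 2 probe sets of Pla2g15 stood at 0.12 and -0.26 in male 4, so their mean hides a disagreement. Pla2g16 appears on the array under its current symbol Plaat3, an enzyme gene of adipocytes that takes fatty acids from phospholipids, and was left out of the counts. Plaat3 had 0.13, -0.03, 0.29 and -0.05 in males and -0.06, 0.03, -0.08 and 0.03 in females, a difference of -0.11 ± 0.07 (SE, limma adjusted p = 0.832).

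The lysophospholipid acyltransferases complete the remodelling cycle, and 9 of 9 were measured. Means were higher in males in 7 and in females in 2, and 0 passed. Lclat1, which acylates lysocardiolipin, varied most over the 8 hearts of all members, with an SD of 0.18. Its values were -0.04, 0.18, 0.04 and 0.32 in males and 0.17, -0.20, -0.04 and -0.19 in females. Male 4 was the highest and females 2 and 4 the lowest, but female 1 lay among the males and male 1 among the females. The difference was -0.19 ± 0.10 (SE, limma adjusted p = 0.746) and kept its direction in all 19 refits, from -0.33 without the 3 hearts highest in Myh4 to -0.07 with the mean of the adipocyte markers as a term in the fit. That marker mean lay between -0.17 and 0.13 in males and between -0.17 and 0.32 in females, with 9 of 9 markers measured, 7 of them with higher means in females, 3 at an unadjusted limma p under 0.05 and 0 past the adjusted threshold. The part of fat tissue in the Lclat1 values was not tested further.

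Mboat2, which acylates lysophosphatidylethanolamine and lysophosphatidylcholine, varied within each sex. Its values were -0.06, 0.06, -0.32 and 0.12 in males and -0.11, 0.13, -0.12 and 0.09 in females, with male 3 the lowest and female 2 the highest. The labels do not say whether the numbers link animals across the sexes, and same-numbered hearts were not taken as pairs. Values were above 0 in males 2 and 4 and females 2 and 4, and these were the 4 hearts in which the mean of the 6 atrial muscle markers was above 0, at 0.25, 0.17, 0.52 and 0.34, while that mean was -0.74, -1.02, -1.23 and -0.18 in males 1 and 3 and females 1 and 3. Mboat2 values are set around their own median, so 4 hearts lie above 0 by construction. The match was picked out after the values of all 41 members were known, without a count of all genes that share it. The part of atrial tissue in the Mboat2 values was not tested. The sex difference of Mboat2 was 0.04 ± 0.10 (SE, limma adjusted p = 0.973), and 0.0048 with the atrial marker mean as a term in the fit.

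**Figure D2:**
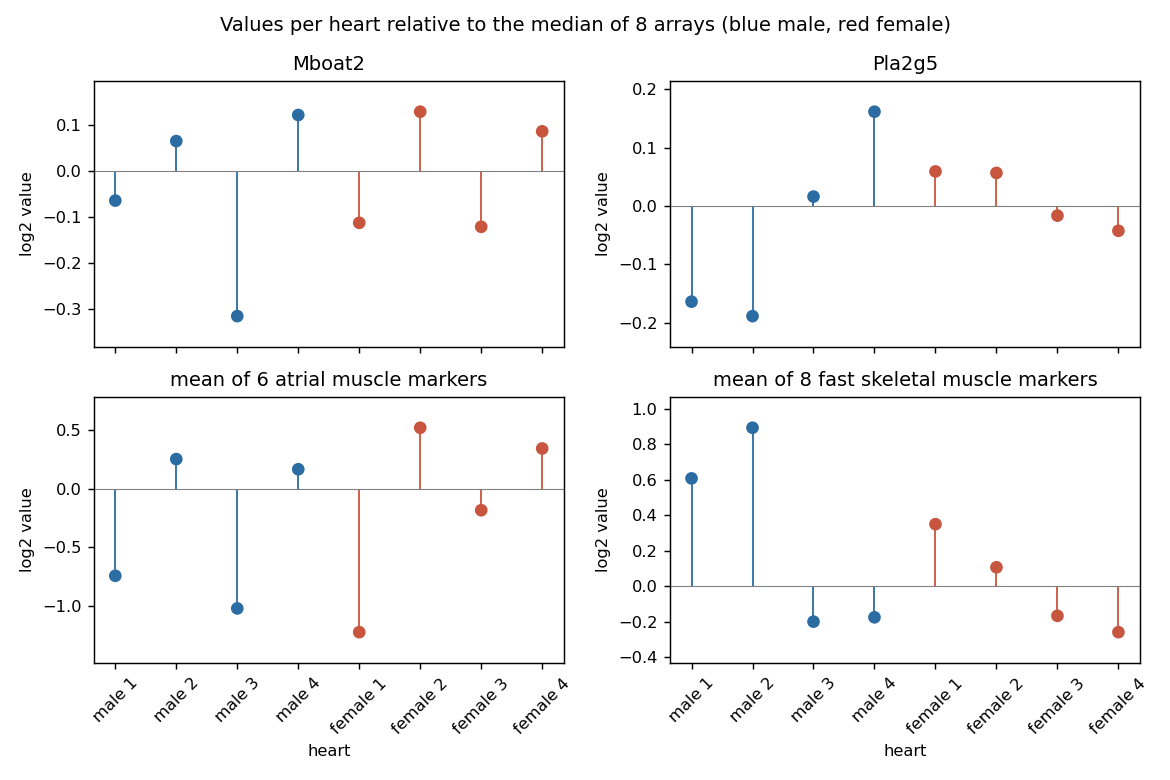
Log2 value relative to the median of 8 arrays (y axis) in each heart (x axis; blue male, red female) for Mboat2, Pla2g5, and the means of the atrial and the fast skeletal muscle markers. Mboat2 and the atrial mean are above 0 in the same 4 hearts, a match picked out after the values were known. Pla2g5 is lowest in males 1 and 2, where the skeletal mean is highest, but is at 0.06 in female 1, which has the next highest skeletal mean.

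Lpcat1, whose enzyme makes the saturated phosphatidylcholine of lung surfactant, had values of 0.07, -0.14, 0.11 and 0.17 in males and 0.04, -0.05, -0.04 and -0.16 in females. Male 2 lay near the lowest female, the sexes overlapped, and the difference was -0.10 ± 0.07 (SE, limma adjusted p = 0.834). Without male 2 it was -0.17, without male 4 -0.06 and without female 4 -0.07, and over 19 refits it ran from -0.22 without the Myh4 hearts to -0.04 with the lymphocyte marker mean. Lpcat4 had values of -0.15, 0.21, 0.06 and -0.14 in males and -0.07, 0.03, -0.03 and 0.07 in females. The males held both extremes, with an SD of 0.17 against 0.06 in females, and the difference was 0.0026 ± 0.08 (SE). Lpcat2, which can also make platelet-activating factor, was lower in female 1, at -0.24, than in any other heart, where it lay between -0.08 and 0.11. Lpcat3, which places polyunsaturated fatty acids into phosphatidylcholine and phosphatidylethanolamine, had a difference of -0.05 ± 0.06 (SE) and was highest in male 4 at 0.23. Mboat1, Mboat7, which puts arachidonate into phosphatidylinositol, and Lpgat1 were steady, with SDs over the 8 arrays between 0.04 and 0.05 and differences between -0.01 and -0.002.

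Of the 5 phospholipase D type genes, all 5 were measured and 0 passed. Napepld, whose enzyme releases N-acylethanolamines such as anandamide from a derivative of phosphatidylethanolamine, had values of -0.04, 0.13, 0.26 and 0.004 in males and -0.004, -0.23, -0.12 and 0.04 in females. Male 3 was the highest and female 2 the lowest, and male 1 lay below 2 of the females. Its means were 0.09 ± 0.13 for males and -0.08 ± 0.12 for females (n = 4 per sex, ± SD), a difference of -0.16 ± 0.08 (SE, limma adjusted p = 0.726), which ran from -0.31 with the lymphocyte marker mean to -0.11 without male 3 over 19 refits. Pld1, which makes phosphatidate from phosphatidylcholine, had values of -0.04, 0.22, 0.04 and -0.07 in males and -0.08, -0.06, 0.29 and 0.11 in females. Its highest hearts were female 3 and male 2, so the spread crossed the sexes, and the difference was 0.03 ± 0.09 (SE). Its relative Pld2 had a difference of -0.06 ± 0.06 (SE), with female 4 the lowest at -0.20. Pld3 and Pld4, which are lysosomal nucleases despite their names, had differences of -0.03 and 0.04.

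**Figure D3:**
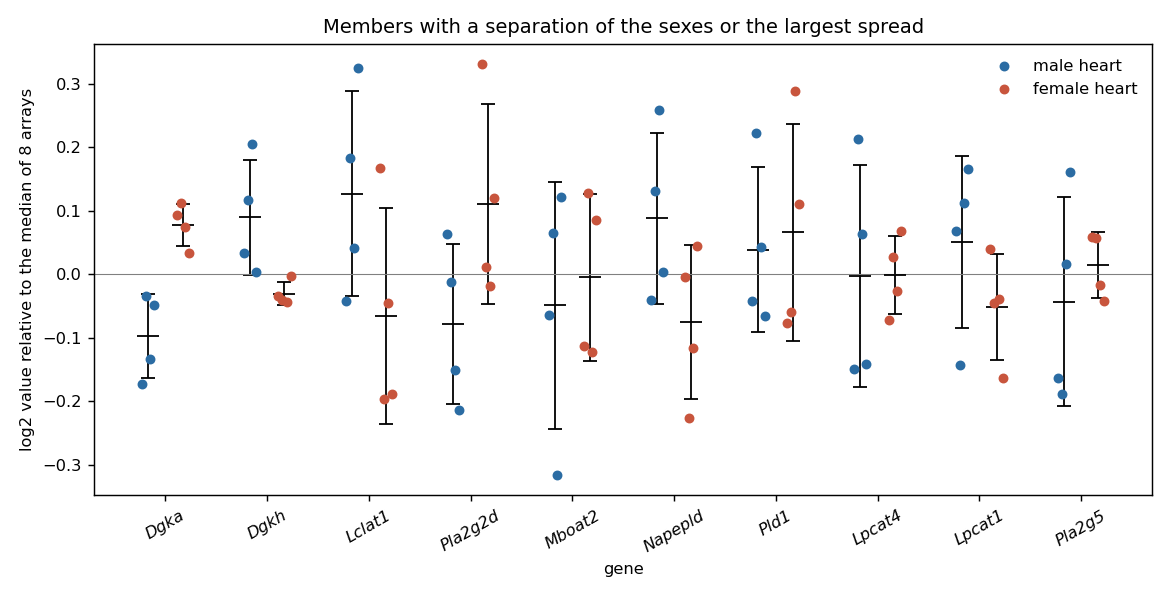
Log2 value relative to the median of 8 arrays (y axis) for the 2 members whose sexes did not overlap and the 8 with the largest SD over the arrays (x axis). Points are single hearts and bars are mean ± SD of 4 hearts; the male and female points are apart in Dgka and Dgkh and overlap in the other 8.

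Diacylglycerol kinases turn diacylglycerol, the activator of protein kinase C, into phosphatidate. Of 9 genes 7 were measured, with higher means in females in 3 and in males in 4. Dgka, the alpha form, calcium-regulated and abundant in T cells, had values of -0.17, -0.03, -0.13 and -0.05 in males and 0.09, 0.11, 0.07 and 0.03 in females. All females lay above all males. The means were -0.10 ± 0.07 for males and 0.08 ± 0.03 for females (n = 4 per sex, ± SD), a 1.13-fold difference (0.18 ± 0.04 SE, 95% interval 0.09 to 0.26, limma adjusted p = 0.437, unadjusted p = 0.00173), which failed the adjustment. Over 19 refits the difference was 0.15 to 0.26, the unadjusted limma p 0.00142 to 0.0243 and the adjusted p 0.385 to 0.742. Beside it, the T cell receptor subunit gene Cd3g had a difference of 0.22 ± 0.07 (SE, limma adjusted p = 0.563) and the other T cell markers measured had -0.08 ± 0.07 for Cd3e, 0.03 ± 0.03 for Cd3d and 0.07 ± 0.06 for Cd8a. With the mean of the lymphocyte markers as a term in the fit, the Dgka difference was 0.26 ± 0.06 (SE). That mean did not overlap between the sexes, so its part and that of sex cannot be told apart.

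Dgkh, the eta form, had values of 0.03, 0.12, 0.21 and 0.003 in males and -0.03, -0.04, -0.04 and -0.003 in females. All males lay above all females, but male 4 at 0.0032 and female 4 at -0.0032 nearly met. The means were 0.09 ± 0.09 for males and -0.03 ± 0.02 for females (n = 4 per sex, ± SD), a 1.09-fold difference (-0.12 ± 0.05 SE, limma adjusted p = 0.657, unadjusted p = 0.0275), which failed the adjustment. The male mean leans on male 3: without it the difference was -0.08 (limma unadjusted p = 0.0639). The unadjusted limma p was also above 0.05 without male 2 (0.0638) and without female 1, 2 or 3 (0.0526 to 0.0575). Over all 19 refits the unadjusted limma p ran from 0.0107 to 0.153. The other kinases were closer to 0, with differences of 0.04 for Dgkd, -0.05 for Dgke, -0.01 for Dgki, 0.00053 for Dgkq and -0.0036 for Dgkz. The 2 probe sets of Dgke had differences of 0.02 and -0.11, and those of Dgkz 0.05 and -0.06, so for these genes the mean is taken over probe sets that disagree in sign. Dgkb and Dgkg have no probe set named for them here.

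The promoters of Dgka, Dgkh and Mboat2 are shown because the first 2 were the members with separate sexes and Mboat2 was above 0 in the same hearts as the atrial markers; the arrays do not measure promoter activity. Each is the 250 bases before the most upstream start in the RefSeq table of GRCm38.p6, which lists 4 starts for Dgka, 3 for Dgkh and 1 for Mboat2. The stretches are chr10:128745085-128745334 on the minus strand for Dgka, chr14:78732730-78732979 on the minus strand for Dgkh and chr12:24831349-24831598 on the plus strand for Mboat2. They run 5′ to 3′ towards the start. Capitals mark matches to the GC box, CCAAT box and hormone response half-sites spelled out in the next paragraph.
Dgka: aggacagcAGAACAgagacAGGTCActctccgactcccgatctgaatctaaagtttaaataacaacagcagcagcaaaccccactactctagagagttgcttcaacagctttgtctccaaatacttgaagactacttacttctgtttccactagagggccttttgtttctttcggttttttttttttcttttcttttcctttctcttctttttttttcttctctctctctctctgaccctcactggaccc
Dgkh: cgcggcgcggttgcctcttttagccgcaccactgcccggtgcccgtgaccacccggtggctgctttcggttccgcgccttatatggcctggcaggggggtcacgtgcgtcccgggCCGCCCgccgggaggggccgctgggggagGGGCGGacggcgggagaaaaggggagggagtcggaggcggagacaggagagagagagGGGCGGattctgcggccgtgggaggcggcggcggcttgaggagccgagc
Mboat2: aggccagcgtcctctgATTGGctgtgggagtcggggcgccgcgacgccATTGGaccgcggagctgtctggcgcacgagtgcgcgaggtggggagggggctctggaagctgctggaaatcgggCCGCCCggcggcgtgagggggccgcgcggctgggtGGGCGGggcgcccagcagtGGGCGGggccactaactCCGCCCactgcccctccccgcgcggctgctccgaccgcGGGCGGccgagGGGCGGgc
The Dgka stretch has 41.2% G and C and 3 CG pairs. Those of Dgkh and Mboat2 have 73.6% and 77.6% with 30 and 33 CG pairs. The contrast between Dgka and Dgkh depends on the start printed. Over its 4 starts Dgka runs from 41.2% to 72.4% with 3 to 25 CG pairs. Dgkh runs over its 3 starts from 40.4% to 73.6% with 5 to 30. At least 1 other start of Dgka holds a GC box, and at least 1 of Dgkh an AGAACA match. In the printed Dgka stretch an AGAACA match begins 242 bases before the start and an AGGTCA match 231 bases before it. The printed Dgkh stretch has 3 GC boxes, the nearest 49 bases before the start, and that of Mboat2 has 6.

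RefSeq held promoters for 40 of the 41 measured members, 54 starts in all, and the median share of G and C in the 250 bases before a start was 58.4%, beside 52.4% over 32841 promoters. It was 71.6% for the lysophospholipid acyltransferases (10 starts), 66.4% for the phospholipase D type genes (7 starts) and 60.8% for the diacylglycerol kinases (13 starts), but 43.2% for the cytosolic phospholipases A2 (6 starts), where the median number of CG pairs was 1. The secreted forms had 55.2% with 4 CG pairs. Of the motifs searched on both strands, the GC box GGGCGG was in 55.6% of the members' promoters and 32.8% of all, the TATA box TATAAA in 5.56% and 12.4%, and the CCAAT box in 33.3% and 33.9%. The estrogen response half-site AGGTCA was in 11.1% against 14.0% of all, and the androgen response half-site AGAACA in 14.8% against 16.1%. The full sites GGTCANNNTGACC and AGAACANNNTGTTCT, which can overlap the half-sites, were in 0 of 54, and in 0.06% and 0.01% of all promoters. The 32841 promoters belong to 27018 gene symbols and were not filtered by gene type, so they may differ in kind from the members, which were chosen from enzyme families. Starts of 1 gene share sequence, and a match is a description of letters only.

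The last steps of cardiolipin synthesis run from Pgs1, which makes phosphatidylglycerol phosphate, through the mitochondrial phosphatase Ptpmt1 to cardiolipin synthase, Crls1. All 3 were measured and 0 passed. Crls1 had values of -0.11, -0.02, 0.02 and -0.03 in males and 0.09, 0.08, 0.06 and -0.11 in females. Except for female 4, which was level with the lowest male, the females lay above the males, and the difference was 0.06 ± 0.05 (SE, limma adjusted p = 0.89), and over 19 refits it ran from 0.0060 without the 2 hearts highest in Alb, a liver gene, to 0.21 with the lymphocyte marker mean as a term. It was 0.11 without female 4, 0.04 without male 1 and 0.01 without the Myh4 hearts. Pgs1 had a difference of -0.08 ± 0.06 (SE, limma adjusted p = 0.831) and Ptpmt1 one of -0.02 ± 0.06.

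Across the 8 hearts the median SD of the 41 members was 0.09, with a range from 0.03 for Plb1 to 0.18 for Lclat1, beside a median of 0.08 over all genes, and 25 members lay above that median of all genes. The acyltransferases had a median SD of 0.11 and the other phospholipases A and B one of 0.05. The members did not follow 1 heart. The highest value fell on male 4 in 8 of the 41 and on male 1 in 2, beside 12.6% and 12.2% of all genes. It fell on male 3 and female 1 in 7 each, beside 14.7% and 13.0%. The lowest value fell on females 2 and 4 in 8 members each, beside 12.8% and 13.8% of all genes. The median of the members per heart stayed between -0.02 and 0.02.

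**Figure D4:**
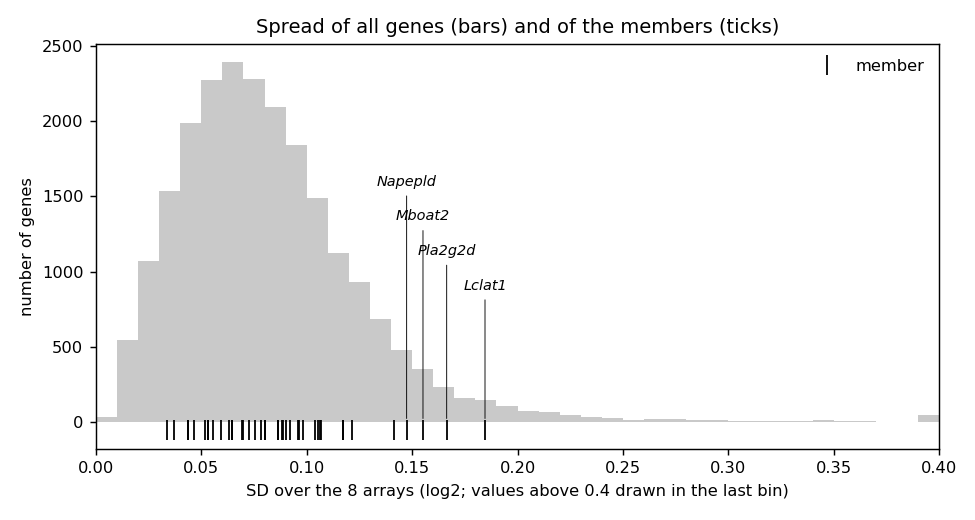
Histogram of the SD over the 8 arrays (x axis, log2) for all 22180 genes (y axis, number of genes), with a tick for each of the 41 members. The members span 0.03 to 0.18 within the bulk of genes, with Napepld, Mboat2, Pla2g2d and Lclat1 at the upper end.

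The same fit was read for genes up- and downstream of these enzymes. Over 8 lists with 127 measured genes, 0 passed the adjustment and 11 had an unadjusted limma p under 0.05, or 8.66% beside 6.96% of all genes, 6 higher in females and 5 in males. Of 23 genes of eicosanoid and platelet-activating factor handling, 0 reached an unadjusted p under 0.05, led by the lipoxygenase gene Alox12 (-0.09 ± 0.05 SE) and the prostacyclin receptor gene Ptgir (-0.08 ± 0.05 SE), with a list median of -0.0043. Of 14 phospholipase C genes, which make diacylglycerol, 3 did, 1 higher in males and 2 in females, with Plcg2 at -0.18 ± 0.06 and Plcd3 at 0.18 ± 0.06 (SE) and a median of -0.01. Of 10 lipid phosphate phosphatases and lipins, which return phosphatidate to diacylglycerol, 2 did, Plpp1 (-0.12) and Lpin3 (0.19), with a median of -0.04. Of 19 proteins that bind diacylglycerol 0 did, led by Chn2 (0.17) and the protein kinase C gene Prkcq (-0.17), with a median of -0.03.

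Of 8 genes of lysophosphatidate and lysolipid receptors 2 did, the lysophosphatidate receptor genes Lpar2 (0.14 ± 0.05 SE) and Lpar4 (-0.20 ± 0.08 SE), with a median of -0.01. Of 14 endocannabinoid and N-acylethanolamine genes 1 did: Naaa, which degrades N-acylethanolamines, had a difference of 0.21 ± 0.06 (SE, limma adjusted p = 0.514), while Mgll, which degrades the endocannabinoid monoacylglycerol, had -0.09 and the list median was 0.01. Of 18 genes of phosphatidate, CDP-diacylglycerol and cardiolipin supply 1 did, Cds1 (-0.19 ± 0.08 SE), followed by Prelid1 (-0.12), a carrier of phosphatidate into mitochondria, with a median of -0.0081. Of 21 other lysophospholipases and phospholipid lipases 2 did. Pla1a, a secreted phosphatidylserine-specific phospholipase A1, had the smallest p of all 127 genes, with means of 0.12 ± 0.07 for males and -0.18 ± 0.11 for females (n = 4 per sex, ± SD) and a difference of -0.31 ± 0.06 (SE, limma adjusted p = 0.273). The lowest male exceeded the highest female. Pnpla7, a lysophospholipase gene, had a difference of 0.15, and the median of this list was -0.02. The count of 11 was 17 without male 1, and 7 without male 3 or without male 4, where 6.68%, 6.06% and 6.52% of all genes passed.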

How the data were processed

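Per the labels, biotin-labelled RNA was hybridised to 8 arrays, 4 male and 4 female. The authors deposited 1 table of values on a log scale, read here as log2, with 34351 probe sets. No source used here names the scanner software, the background correction, the summarization or a genome build. The median of every probe set over the arrays is 0 within 1e-06, so brightness is lost and the planned filter on it was not run. Array medians lie between -0.0021 and 0.0023.

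Of the probe sets, 23521 carry 1 gene symbol in the platform annotation, 1814 carry several and 9016 none. A gene's probe sets were averaged. This left 22180 genes, with 3 members on more than 1 probe set. limma 3.58.1 in R 4.3.3 (lmFit, eBayes, sex as the only term) was fitted over all genes with Benjamini-Hochberg adjustment and a threshold of 0.05, and checked on simulated data. The median SE was 0.05. The number of arrays limits precision. The labels call the samples biological replicates, and only if samples shared the same animals would the p-values measure technical spread. The members and lists were chosen with earlier results of these data known. Values in every array are given for members with an unadjusted p under 0.05 or with separate sexes and for the 8 with the largest SD, and 2 genes of smallest p are named per pathway list; other values were chosen after they were seen. Upstream sequences and gene order come from RefSeq tables of GRCm38.p6.

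Replicate numbers are shared by the sexes. Deviations of same-numbered hearts from their group means correlated between 0.0062 and 0.14, not above 0.1 in every pair. For males 1 and 2 the same-numbered female correlated best of the females, and for males 3 and 4 it did not. Same-numbered hearts were not taken as pairs, but a link is not excluded. Alternatives were other scalings, variance models, array weights, autosomal genes, single probe sets, a replicate block, each array left out, hearts with high Myh4 or Alb left out, and atrial, adipocyte or lymphocyte markers as a covariate. The lymphocyte covariate and the count with Plaat3 were added after seeing the data.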

Additional observations from a re-analysis of the deposited data

Results flagged for a closer look

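In 6 of 82 groups of 4 hearts, 1 heart stood apart from the other 3 by more than a Dixon test at 95% allows. Chance flags about 1 group in 20, and the share over all genes was not counted. Male 1 was at -0.14 for Pla2g4e, with the other males between 0.02 and 0.05, and at 0.11 for Dgki, with the others between -0.01 and 0.0052. Female 3 was at -0.25 for Pla2g12a, with the other females between 0.0058 and 0.05. Female 1 was at 0.15 for Dgkq, with the others between -0.02 and -8.06e-05. Female 4 was at -0.10 for Dgkz, with the others between 0.02 and 0.04, and at -0.11 for Crls1, with the others between 0.06 and 0.09.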

How the results depend on the processing

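The count of 0 members past the adjusted threshold held in all 21 alternatives, while calls over all genes ran from 0 to 8. The 0 came from the fit of autosomal genes only. The sign of the difference held in all 19 refits for 13 of 41 members and changed at least once for 28. The share over all genes was not counted. Dgka and Dgkh are among the 13, but their sexes did not overlap. Leaving hearts out therefore could not change their sign. Members at an unadjusted p under 0.05 (2) were 1 to 5 with each array left out (6.06% to 7.84% of all genes), 4 (9.76%) with the replicate block, the adipocyte or the lymphocyte covariate, beside 7.64%, 7.79% and 7.39% of all genes, and 6 without the 3 hearts highest in Myh4 (males 1 and 2 and female 1), where 7.29% of all genes passed. Members whose sexes did not overlap (2) were 2 to 6 with each array left out (6.28% to 7.77% of all genes). They were 10 (24.4%) without the Myh4 hearts or without the 2 hearts highest in Alb, where 22.7% and 14.7% of all genes were separate. The Alb hearts were females 1 and 2, so that refit set fewer females against all 4 males. The median member difference was -0.021 to 0.0070 with each array left out, -0.0272 without the Myh4 hearts and 0.00984 without the Alb hearts. Of the 127 pathway genes, 7 to 17 had an unadjusted limma p under 0.05 with each array left out (11 in the main fit). The share of all genes was then 6.06% to 7.84%. Without the Myh4 hearts the count was 25 of 127, where 7.29% of all genes passed. The median difference of the pathway genes (-0.0098) was -0.0186 without those hearts and -0.020 with the adipocyte covariate. The causes were not tested. The median SD of the members kept within 1.5 times under quantile normalization and with each array left out. The replicate block changed no adjusted call of a member or a pathway gene.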
